A study of Mus musculus with 6 samples.

Results

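The 6 genes *Acaa1b*, *Ehhadh*, *Pdk4*, *Plin2*, *Retsat* and *Slc25a47* are known targets of the nuclear receptor PPAR alpha in hepatocytes, and their RNA was measured in mouse liver with and without added *Zrsr1*. They act in peroxisomal beta-oxidation (*Acaa1b*, *Ehhadh*), fuel choice (*Pdk4*), lipid droplets (*Plin2*), retinol saturation (*Retsat*) and mitochondrial transport (*Slc25a47*). The 6 genes were chosen by their lower counts in the comparison described here, out of 257 genes in the deposited table, and the acyl-CoA thioesterase genes were left out of the choice. The table is itself a list of genes selected on the same comparison, so the counts, fold changes and calls of these genes are a description and no test supports them. Liver RNA came from wild-type C57BL/6J mice that all received an AAV through the tail vein and all ate a high-fat diet (HFD) for 13 weeks. In 3 mice the AAV was the control vector (TBG-Vec, with columns named GFP in the table), and in 3 mice it carried *Zrsr1* (TBG-*Zrsr1*). The TBG promoter limits expression of the insert to hepatocytes. The age of the mice was not given in the sources used here. Each library is labelled as a separate liver sample. Whether the 3 mice of a group shared a cage or litter is not given for these mice, so how independent they were is unknown.

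PPAR alpha is a ligand-activated transcription factor that binds DNA together with RXR. In liver it is best known for its activity in fasting, when fatty acids from adipose tissue reach hepatocytes and the enzymes of fatty acid oxidation and ketone body synthesis are induced. Its targets also include genes that store lipid in droplets and genes that steer pyruvate away from oxidation.

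The labels were checked on *Zrsr1* itself, which had 194, 197 and 202 counts in the TBG-Vec mice and 4383, 4479 and 4405 counts in the TBG-*Zrsr1* mice (log2 fold change 4.48, standard error 0.18). All 3 mice labelled TBG-*Zrsr1* thus stood far above all 3 mice labelled TBG-Vec. The counts of the listed genes summed to 264103, 283414 and 281277 in TBG-Vec mice and to 231429, 174448 and 227278 in TBG-*Zrsr1* mice. These sums are not library depths, which are unknown, and TBG-*Zrsr1* mouse 2 had the lowest sum. The 6 genes made up 15.6%, 16.0% and 17.9% of the sum in TBG-Vec mice and 13.8%, 14.1% and 14.7% in TBG-*Zrsr1* mice. Sums and shares depend on *Scd1*, which alone held 46.8% to 47.3% of the sum in TBG-Vec mice and 40.1%, 30.6% and 43.0% in TBG-*Zrsr1* mice. Without *Scd1* the 6 genes made up 29.6%, 30.1% and 33.8% of the sum in TBG-Vec mice and 23.1%, 20.3% and 25.8% in TBG-*Zrsr1* mice, and TBG-*Zrsr1* mouse 2 still had the lowest sum, 121122. A gene was called lower with an adjusted p under 0.05 in edgeR's quasi-likelihood test and a fold change above 1.5, without rescaling between libraries. Of the 6 genes, 3 were called lower (*Acaa1b*, *Pdk4* and *Plin2*), where 42.0% of all 257 listed genes were. All 3 TBG-*Zrsr1* mice lay below all 3 TBG-Vec mice in 6 of the 6 genes, where 73.9% of the listed genes did so. Nothing is read from either count, because the choice of the genes used this contrast. The count of 3 fell to 1 without TBG-*Zrsr1* mouse 2, to 2 without TBG-Vec mouse 3, and rose to 4 without any of the other mice in turn. In the same fits the listed genes called lower numbered 67 without TBG-*Zrsr1* mouse 2, 96 without TBG-Vec mouse 3, and 96 to 130 without any of the other mice. In bulk liver RNA, fewer hepatocytes and less RNA per hepatocyte cannot be told apart.

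*Ehhadh* encodes the bifunctional enzyme of hydration and the oxidation that follows it in peroxisomal beta-oxidation. It lies on the minus strand at chr16:21580036-21606563 (GRCm39) and its canonical transcript has 7 exons. It was counted 4315, 4247 and 5041 times in TBG-Vec mice and 3160, 2790 and 3277 times in TBG-*Zrsr1* mice. Both groups were narrow, with the highest TBG-*Zrsr1* mouse at 77.2% of the lowest TBG-Vec mouse, the widest gap among the 6 genes. The mean was 67.8% of the TBG-Vec mean (log2 fold change −0.56, standard error 0.17). *Ehhadh* was therefore just outside the 1.5-fold limit, which stands at 66.7% of the TBG-Vec mean. It was called lower without TBG-Vec mouse 1 (−0.59), without TBG-Vec mouse 2 (−0.605) and without TBG-*Zrsr1* mouse 3 (−0.61).

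*Acaa1b* encodes a peroxisomal 3-ketoacyl-CoA thiolase, the enzyme that cleaves acetyl-CoA from the product of the *Ehhadh* step. The gene is on the minus strand at chr9:118977091-118986161 (GRCm39), with 12 exons in its canonical transcript. Its counts were 20672, 23577 and 25491 in TBG-Vec mice and 16211, 10662 and 16821 in TBG-*Zrsr1* mice. TBG-*Zrsr1* mouse 2 was well below the other TBG-*Zrsr1* mice, and the groups did not overlap. The mean fell to 62.7% of the TBG-Vec mean (log2 fold change −0.67, standard error 0.22). Without TBG-*Zrsr1* mouse 2 the log2 fold change was −0.49 and *Acaa1b* was no longer called.

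Reads of *Acaa1b* may be shared with 2 other genes. Of the 100-base words of its canonical transcript, 30.5% also occur in the exons of other genes, namely the close paralog *Acaa1a* on the same chromosome and *Dlec1*. With 50-base words the share was 46.2%, in the same 2 genes. *Dlec1* lies on the opposite strand, its last exon ends inside the 3′ UTR of *Acaa1b*, and both genes cover 224 bases at chr9:118977091-118977314, which is 13.3% of the *Acaa1b* transcript. *Acaa1a* was not analysed here. *Dlec1* has a row of its own, and was counted 3219, 3883 and 4608 times in TBG-Vec mice and 2632, 1953 and 2840 times in TBG-*Zrsr1* mice. It followed the order of *Acaa1b* in all 6 mice, with the lowest value of either gene in TBG-*Zrsr1* mouse 2 and the highest in TBG-Vec mouse 3. Its count was 15.6%, 16.5% and 18.1% of that of *Acaa1b* in TBG-Vec mice and 16.2%, 18.3% and 16.9% in TBG-*Zrsr1* mice. The likeness is not particular to *Dlec1*, since its deviations within groups correlated with those of *Acaa1b* at r = 0.94 over the 6 mice, only rank 21 among the listed genes. *Dlec1* was singled out after its values were seen. Whether the counting used the strand is not given in the sources used here, so reads of the pair cannot be told apart in the overlap, and the part of the overlap in either count was not tested.

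*Pdk4* encodes a kinase that inhibits the pyruvate dehydrogenase complex and so spares glucose when fatty acids are burnt. It is on the minus strand at chr6:5483097-5496339 (GRCm39) and its canonical transcript has 11 exons. Counts were 212, 194 and 155 in TBG-Vec mice and 63, 48 and 139 in TBG-*Zrsr1* mice. TBG-*Zrsr1* mouse 3 was close to the lowest TBG-Vec mouse, at 89.7% of its count, while TBG-*Zrsr1* mice 1 and 2 were far below both. *Pdk4* fell to 44.6% of the TBG-Vec mean (log2 fold change −1.16, standard error 0.30), and 10 of the 257 listed genes had a lower log2 fold change. The coefficient of variation was 58.5% in TBG-*Zrsr1* mice against 15.6% in TBG-Vec mice. Counting error alone amounts to 11.0% and 7.31% for a count equal to the respective group mean. Without TBG-*Zrsr1* mouse 3 the log2 fold change was −1.75, and without TBG-*Zrsr1* mouse 2 it was −0.89.

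*Plin2* encodes perilipin 2, which coats lipid droplets and is prominent in steatotic hepatocytes. It is on the minus strand at chr4:86565912-86588459 (GRCm39), with 8 exons in the canonical transcript. It was counted 5277, 5610 and 6227 times in TBG-Vec mice and 3587, 3001 and 4336 times in TBG-*Zrsr1* mice. The groups did not overlap, and TBG-*Zrsr1* mouse 3 came nearest to the TBG-Vec mice, at 82.2% of the lowest of them. *Plin2* fell to 63.8% of the TBG-Vec mean (log2 fold change −0.65, standard error 0.19), the called gene nearest to the 1.5-fold limit among the 6. It was not called without TBG-Vec mouse 3 (−0.58) or without TBG-*Zrsr1* mouse 2 (−0.53). Of the 50-base words of its canonical transcript, 8.70% also occur in *Gm12551*, against 0.41% of the 100-base words. The part of such shared reads in the count was not tested.

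*Retsat* encodes retinol saturase, an oxidoreductase of the endoplasmic reticulum that converts all-trans-retinol to a dihydroretinol. It is on the plus strand at chr6:72575458-72585996 (GRCm39), and its canonical transcript has 11 exons. The counts were 4492, 4651 and 5686 in TBG-Vec mice and 4070, 2912 and 3502 in TBG-*Zrsr1* mice. TBG-*Zrsr1* mouse 1 reached 90.6% of the lowest TBG-Vec mouse, the narrowest gap among the 6 genes, and TBG-Vec mouse 3 stood above the other TBG-Vec mice. The mean was 70.7% of the TBG-Vec mean (log2 fold change −0.50, standard error 0.19), which was not called. Without TBG-*Zrsr1* mouse 1 it was −0.62 and called lower. Exons of genes on the opposite strand cover 80.1% of the canonical *Retsat* transcript, of which *Tgoln1* covers 2256 bases, *Elmod3* 322 bases and *Gm45053* 318 bases. None of these genes is in the table, they were not analysed here, and how far their reads enter the *Retsat* count was not tested.

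*Slc25a47* encodes a carrier of the inner mitochondrial membrane that is expressed almost only in liver. It is on the plus strand at chr12:108801972-108822741 (GRCm39), with 6 exons in its canonical transcript. Counts were 6252, 7144 and 7796 in TBG-Vec mice and 4847, 5216 and 5364 in TBG-*Zrsr1* mice. The TBG-*Zrsr1* mice were close together, with a coefficient of variation of 5.18%, and TBG-*Zrsr1* mouse 2 was not the lowest here. The mean was 72.8% of the TBG-Vec mean (log2 fold change −0.46, standard error 0.17), which was not called, and 187 of the 192 listed genes with lower counts in TBG-*Zrsr1* mice had a lower log2 fold change. Its canonical transcript shares no exonic base with another gene, but over all its transcripts 235 of its 3135 exonic bases are shared, 230 of them with *Slc25a29* on the opposite strand and 5 with *Mir345*. The part of this overlap in the count was not tested.

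**Figure D1:**
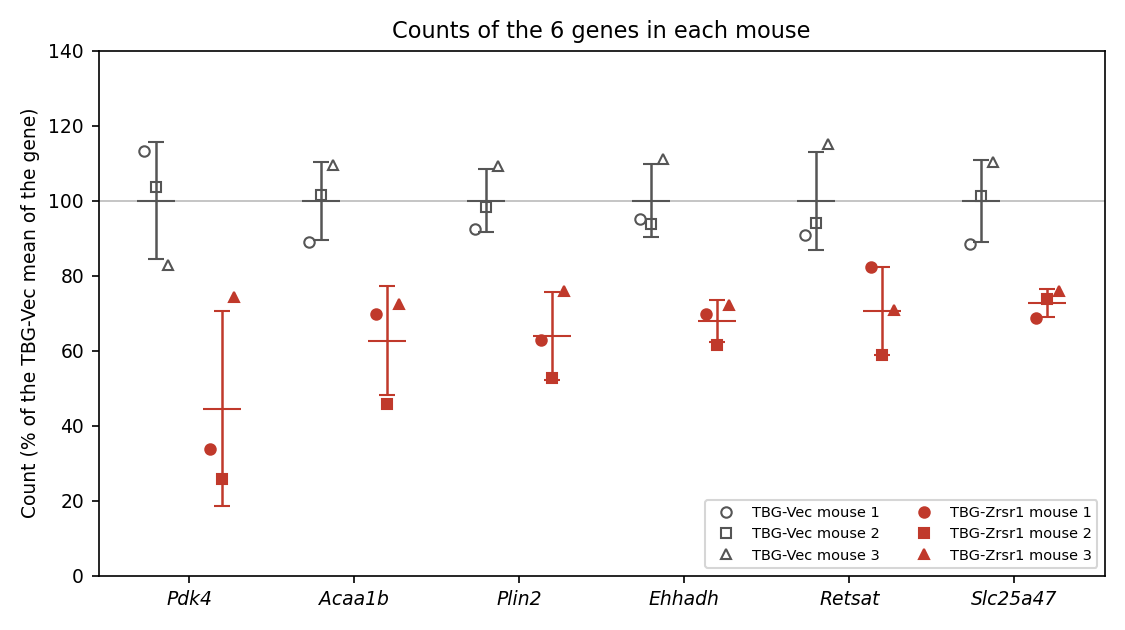
Count of each of the 6 genes in each mouse, as a percentage of the TBG-Vec mean of that gene (vertical axis), for 3 TBG-Vec mice (open symbols) and 3 TBG-*Zrsr1* mice (filled symbols). Horizontal bars are group means and vertical bars are SD (n = 3); the TBG-*Zrsr1* means run from 44.6% for *Pdk4* to 72.8% for *Slc25a47*, without rescaling between libraries.

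Levels can be compared between genes only per length, as counts per kb of canonical transcript. On that scale *Acaa1b* was the most abundant of the 6 genes, at 13764 ± 1437 counts per kb for TBG-Vec mice and 8623 ± 2009 counts per kb for TBG-*Zrsr1* mice (SD, n = 3 each). *Slc25a47* came next, at 4377 ± 480 counts per kb for TBG-Vec mice and 3186 ± 165 counts per kb for TBG-*Zrsr1* mice (SD, n = 3 each). *Plin2* followed with 2783 ± 235 and 1776 ± 326 counts per kb (SD, n = 3 each). *Ehhadh*, at 1518 ± 147 and 1029 ± 85.1 counts per kb, and *Retsat*, at 1367 ± 179 and 967 ± 160 counts per kb (SD, n = 3 each), were the only neighbours in this order whose mice overlapped within both groups. *Pdk4* was by far the least abundant, at 49.7 ± 7.75 counts per kb for TBG-Vec mice and 22.2 ± 12.98 counts per kb for TBG-*Zrsr1* mice (SD, n = 3 each). The order of the 6 genes by level was the same in both groups. The levels of *Acaa1b*, *Plin2*, *Retsat* and *Slc25a47* include any reads shared with the genes named above as overlapping them or sharing words with them.

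The median log2 fold change was −0.60 over the 6 genes, −0.54 over all 257 listed genes and −0.61 over the 192 listed genes with lower counts. Scaling the libraries over the listed genes raised the median of all listed genes by 0.39 with equal totals, by 0.47 with DESeq2's size factors and by 0.52 with TMM. The median of the 6 genes then became −0.21, −0.13 and −0.08. The counts of *Slc25a47* were then no longer lower with DESeq2's size factors (0.03) or with TMM (0.08), those of *Retsat* were no longer lower with TMM (0.01), and the other 4 genes were lower under each of these scalings. None of the 6 genes was called in edgeR with any of these scalings, and 1 of them was lower at an unadjusted p under 0.05 in each, where 40 of the 257 listed genes were with equal totals, 27 with DESeq2's size factors and 20 with TMM. DESeq2's own test with its size factors likewise called 0 of the 6 genes, with 1 of them and 18 of the listed genes lower at an unadjusted p under 0.05. *Pdk4* kept the lowest log2 fold change of the 6 genes, between −0.80 and −0.66 with rescaling. Over all listed genes, 108 were called lower and 48 higher without rescaling, against 13 lower and 65 higher with DESeq2's size factors in edgeR. Because most genes in the list were lower, a scaling over the list removes a difference that they share. Without the genes outside the table, a shared difference in RNA and a difference in depth between the libraries cannot be told apart.

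**Figure D2:**
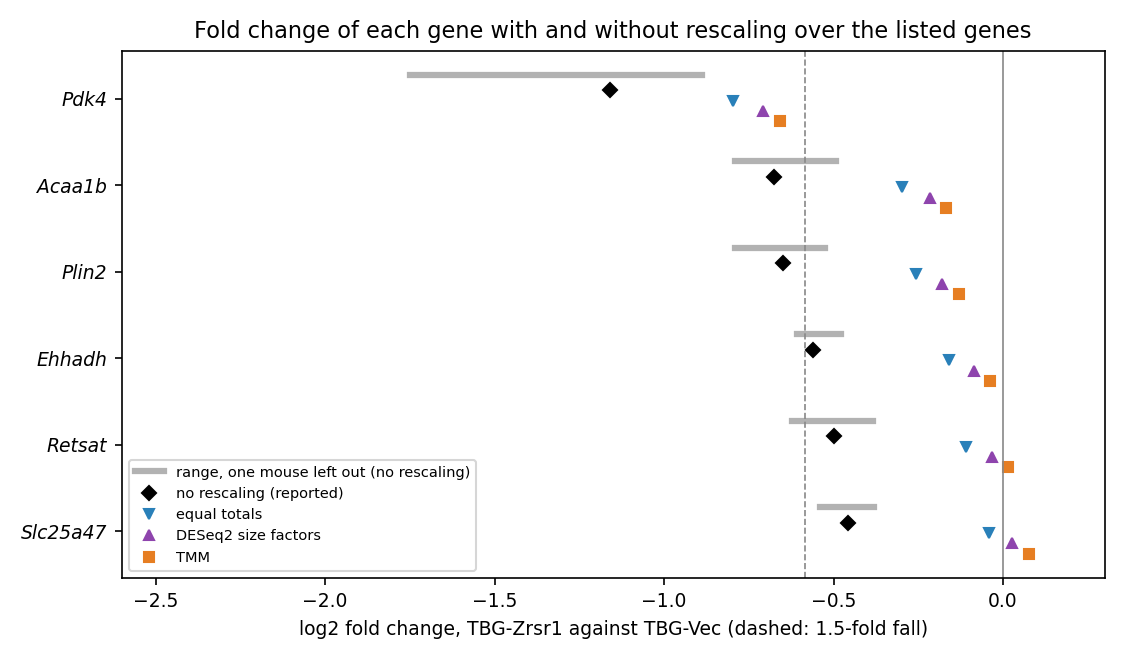
Log2 fold change of each of the 6 genes (horizontal axis) without rescaling (diamonds) and after scaling over the listed genes by equal totals, DESeq2's size factors or TMM (other symbols); grey bars give the range with each mouse left out in turn, and the dashed line marks a 1.5-fold fall. Each scaling raises all 6 values, *Slc25a47* passes 0 with DESeq2's size factors and TMM, and *Retsat* passes it with TMM.

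The same mice were low or high across most of the 6 genes. TBG-*Zrsr1* mouse 2 was the lowest of its group in 5 of the 6 genes, the exception being *Slc25a47*, and in 138 (74.2%) of the other 186 listed genes with lower counts. TBG-Vec mouse 3 was the highest of its group in 5 of the 6 genes, the exception being *Pdk4*, against 75 (40.3%) of those 186 genes. TBG-*Zrsr1* mouse 3 was the highest of its group in 5 of the 6 genes, the exception being *Retsat*, against 67 (36.0%) of the 186 genes. A low count in TBG-*Zrsr1* mouse 2 itself helps to place a gene among those with lower counts, so these shares are a description. Among the 65 listed genes with higher counts, a set made by the same split, it was the lowest of its group in 19 (29.2%) and the highest in 25 (38.5%). Its median log2 deviation from the group mean was −0.26 over the 6 genes, −0.17 over the 186 genes and 0.03 over the 65 genes. The depth of its library is unknown.

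Deviations of each mouse from its group mean, on log2(count + 1), were correlated between genes over the 6 mice as a description. These deviations share the libraries and their unknown depths. Over the 15 pairs of the 6 genes, Pearson's r had a median of 0.56 and ran from −0.026 for *Pdk4* with *Slc25a47* to 0.90 for *Acaa1b* with *Plin2*. The median over pairs of the other listed genes with lower counts was 0.33. Many of those genes had far lower counts than the 6 genes other than *Pdk4*. Counting error therefore differs between the sets, and nothing is read from the difference of the medians. Among all listed genes, those most like *Acaa1b* were *Obfc1* (r = 0.99) and *Gstm4* (r = 0.98), and those most like *Ehhadh* were *Uroc1* (r = 0.96) and *Lhx6* (r = 0.96). *Pdk4* was most like *Dcaf15* (r = 0.98) and *Rfx4* (r = 0.93), and *Plin2* was most like *Hps1* (r = 0.97) and *Sema5b* (r = 0.95). All 8 of these genes had lower counts in TBG-*Zrsr1* mice without rescaling. *Retsat* was most like *Mfsd12* (r = 0.99) and *Dhrs7b* (r = 0.99). *Slc25a47* was most like *Tango2* (r = 0.95) and *Ccdc157* (r = 0.91), of which *Tango2* had higher counts in TBG-*Zrsr1* mice (log2 fold change 0.47). Each of these is among the highest of 256 values of r over only 6 mice, and nothing is read from its size.

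Other genes of fatty acid metabolism were taken from 12 lists of known PPAR alpha targets and related genes. Of the 176 genes on these lists, 14 were in the table, including the 6 described here, and all 14 had lower counts in TBG-*Zrsr1* mice without rescaling, against 14 with equal totals, 11 with DESeq2's size factors (not *Acad10*, *Fads2* or *Slc25a47*) and 10 with TMM (also not *Retsat*). In the table as a whole, 192 of the 257 genes were lower without rescaling, 192 with equal totals, 178 with DESeq2's size factors and 137 with TMM. Among the other 170 genes of the lists, 8 were in the table and 5 of these were called lower, where 42.0% of all listed genes were. Their median log2 fold change was −0.71, against −0.54 over all listed genes, and it became −0.355 with equal totals, −0.27 with DESeq2's size factors and −0.22 with TMM. Nothing particular to the lists is read from these values. In the list of 25 genes of peroxisomal beta-oxidation, *Ehhadh* and *Acaa1b* alone were in the table. The list of 23 genes of mitochondrial beta-oxidation and the carnitine shuttle had *Acad10*, an acyl-CoA dehydrogenase family member, with 408, 396 and 367 counts in TBG-Vec mice and 295, 251 and 303 counts in TBG-*Zrsr1* mice (−0.46, not called). *Paqr7*, which encodes a membrane progestin receptor, had 796, 833 and 883 counts in TBG-Vec mice and 615, 519 and 583 counts in TBG-*Zrsr1* mice (−0.55, not called). The lipogenic genes *Scd1* (−0.68), *Me1* (−0.89) and *Fads2* (−0.46), which PPAR alpha is known to regulate along with SREBP1c, were also lower without rescaling, and *Fads2* was not called. The thioesterase gene *Acot2* had 187, 202 and 235 counts in TBG-Vec mice and 136, 58 and 129 counts in TBG-*Zrsr1* mice, and its neighbours *Acot3* and *Acot4* had log2 fold changes of −1.33 and −0.75. In all 3 thioesterase genes TBG-*Zrsr1* mouse 2 was again the lowest. None of the 8 genes of microsomal omega-oxidation, the 4 of ketogenesis, the 15 of fatty acid uptake and lipoproteins or the 12 listed PPAR and partner factors, among them *Ppara*, *Rxra* and *Rxrb*, was in the table, and they were not analysed here. *Rxrg*, a form of RXR that was not on the list, was in the table.

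Markers of liver cell types were mostly outside the table. None of the 10 hepatocyte markers was in it, so the labelled tissue could not be checked against them. None of the markers listed for cholangiocytes, Kupffer cells, endothelial cells, lymphocytes or neutrophils was in it either. *Cd163*, a macrophage gene outside these lists that was singled out after its values were seen, had 102, 108 and 60 counts in TBG-Vec mice and 148, 133 and 183 counts in TBG-*Zrsr1* mice (log2 fold change 0.78, called higher). Of 8 markers of hepatic stellate cells, 2 were in the table, *Col3a1* and *Col1a1*, and *Col3a1* had the higher counts, not corrected for length. Their summed counts were 441, 550 and 659 in TBG-Vec mice and 356, 204 and 244 in TBG-*Zrsr1* mice, so they were lower along with the 6 genes and lowest in TBG-*Zrsr1* mouse 2. Of 10 adipocyte markers, *Cfd* alone was in the table, with 375, 607 and 100 counts in TBG-Vec mice and 2397, 1024 and 1626 counts in TBG-*Zrsr1* mice. The part of such cells in the counts of the 6 genes was not tested.

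**Figure D3:**
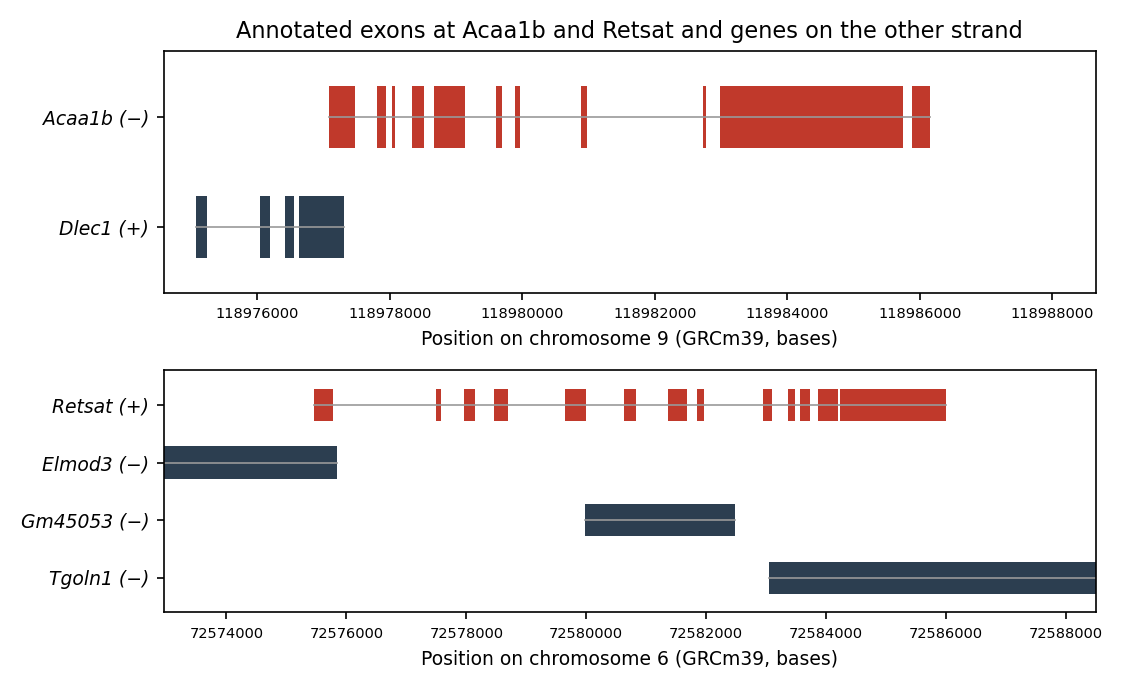
Annotated exons of any transcript (boxes) of *Acaa1b* on chromosome 9 and of *Retsat* on chromosome 6, with the genes on the opposite strand that share exonic bases with them (horizontal axes, position in bases on GRCm39). The last exon of *Dlec1* overlaps the end of *Acaa1b* by 224 bases, and *Tgoln1* covers the 3′ part of *Retsat*.

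The stretch of 250 bases before the RefSeq start of each gene was searched on both strands as a description. The RefSeq start can differ from the outer end of the GENCODE gene given above. The stretches of *Acaa1b* and *Ehhadh* lie outside these gene spans, those of *Pdk4*, *Plin2* and *Retsat* lie partly inside them, and that of *Slc25a47* lies wholly inside, downstream of the first base of the annotated gene. All 6 genes were found in the RefSeq promoter table (GRCm38.p6), and each stretch matched GRCm39 once and exactly, which gave its position there. The letters CCAAT were found in 5 of the 6 stretches, all but that of *Retsat*, and in 33.8% of all 32851 promoters of the table. AGGTCA, a single copy of the repeat that PPAR alpha and other nuclear receptors are known to bind, was found before *Plin2* and *Slc25a47* and in 14.0% of all promoters. The repeat AGGTCANAGGTCA was in none of the 6 stretches and in 0.0335% of all promoters. The repeat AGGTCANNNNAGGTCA was likewise in none of them and in 0.0152% of all promoters. TATAAA was found before *Retsat* alone, 30 bases before the start, and in 12.4% of all promoters. CACGTG was in none of the 6 stretches and in 6.02% of all promoters, and GGGCGG was before *Ehhadh* and *Retsat* and in 32.7% of all promoters. A match is a description of letters, and no match says only that these letters are not in this window.

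The stretches that hold CCAAT or the single AGGTCA are shown as far as they lie outside annotated exons. They are read 5′ to 3′ along the strand of the gene, with the matches to these motifs in capitals, as the reverse complement where the match is on the other strand. Positions count back from the RefSeq start, which is preceded by base −1. The *Acaa1b* stretch (chr9:118986162-118986411, minus strand) holds the first of these motifs at −185 and −38, and the *Ehhadh* stretch (chr16:21606585-21606834, minus strand) also holds it at −38. The *Pdk4* stretch (chr6:5496340-5496528, minus strand) holds it at −131. The *Plin2* stretch (chr4:86588460-86588546, minus strand) holds the nuclear receptor motif at −218, and its other match, at −73, is not shown because it lies inside an annotated exon. The *Slc25a47* stretch (chr12:108816805-108817020, plus strand), which is intronic in the longer annotated gene, holds the nuclear receptor motif at −153 and the first motif at −120.
Acaa1b: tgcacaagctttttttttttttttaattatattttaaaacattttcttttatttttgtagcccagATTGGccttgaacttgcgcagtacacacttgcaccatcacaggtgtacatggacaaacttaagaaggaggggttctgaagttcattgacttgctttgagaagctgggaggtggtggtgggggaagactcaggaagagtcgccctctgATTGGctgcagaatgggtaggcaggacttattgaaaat
Ehhadh: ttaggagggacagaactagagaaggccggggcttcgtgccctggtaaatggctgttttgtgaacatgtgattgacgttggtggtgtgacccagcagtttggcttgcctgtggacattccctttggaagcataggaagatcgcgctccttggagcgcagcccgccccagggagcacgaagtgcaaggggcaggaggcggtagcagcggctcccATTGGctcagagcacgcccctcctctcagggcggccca
Pdk4: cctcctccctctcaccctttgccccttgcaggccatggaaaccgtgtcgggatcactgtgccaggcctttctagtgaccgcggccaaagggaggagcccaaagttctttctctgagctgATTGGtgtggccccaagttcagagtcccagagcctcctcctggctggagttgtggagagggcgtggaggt
Plin2: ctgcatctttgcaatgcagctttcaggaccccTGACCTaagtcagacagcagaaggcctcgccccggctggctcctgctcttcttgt
Slc25a47: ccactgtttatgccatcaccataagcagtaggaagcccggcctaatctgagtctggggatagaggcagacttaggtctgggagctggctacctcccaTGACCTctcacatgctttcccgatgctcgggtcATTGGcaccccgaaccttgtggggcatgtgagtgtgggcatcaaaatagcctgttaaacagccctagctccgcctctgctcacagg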

How the data were processed

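Liver RNA of 3 TBG-Vec and 3 TBG-*Zrsr1* mice was sequenced after poly(A) selection. The deposited counts, which are whole numbers for 257 genes in each mouse, were used as they stand. Sources differ on how the counts were made. The paper's methods name FastQC, HISAT2 with mm39/GRCm39, HTSeq and DESeq2, and the submitters' processing notes name Bowtie2, RSEM 1.3.1, DESeq2 1.4.5 and mm10. The annotation, the strand setting, any scaling between libraries and the rule that selected the genes for the table are not given in the sources used here. The paper's methods do give the limits for a significantly altered gene (0.05 for the adjusted p, 1.5 for the fold change), and these were used for calls here. The authors' columns for the mean, the ratio of group means and the p-value were not used.

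Counts of all 257 genes were fitted with edgeR 4.0.16 in R 4.3.3 (glmQLFit and glmQLFTest, Benjamini-Hochberg adjustment over 257 genes), with equal library sizes, since totals over a selected list are not depths. filterByExpr removed 0 genes. The fit was tested on simulated data. Alternatives were other scalings, DESeq2 1.42.0, limma 3.58.1 on log2(count + 1), filters and thresholds, a replicate block and each mouse left out. Libraries of a group were checked for duplicates, and each pair differed by more than counting noise.

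The genes named are the 6 genes, *Zrsr1*, listed genes present in the table, close paralogs, and for each of the 6 the 2 genes with the highest correlation within groups; others were chosen after their values were seen. The 6 genes and the lists were chosen with earlier results of these data known. Gene positions, exons and transcript lengths are from GENCODE M39 on GRCm39, and promoter sequences are from RefSeq (GRCm38.p6). Words of 50 and 100 bases were compared with the exons of all annotated genes.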

Additional observations from a re-analysis of the deposited data

How the results depend on the processing

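Without rescaling, the 6 genes were lower in TBG-*Zrsr1* mice under each alternative tried. With DESeq2's Wald test without scaling, limma or the replicate block, each kept its side of the threshold. The fits with no filter or a mean of at least 10 counts repeated the main fit, because neither choice changed the genes fitted, so they show nothing about stability. Over the listed genes, deviations of same-numbered mice from their group means correlated at r = −0.107, 0.0311 and 0.0548. The main fit does not pair the mice by number. These values cannot show whether mice shared a cage, litter or batch, which is unknown. The replicate block called 3 of the 6 genes and 107 listed genes lower and 49 higher.

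Scaling over the listed genes ended all 3 calls in edgeR with DESeq2's size factors, TMM or equal totals and in DESeq2's Wald test with its size factors (0 of 6 each, with 1 of 6 lower at an unadjusted p under 0.05 in each, against 27, 20, 40 and 18 of the 257 listed genes). In that order the log2 fold changes were −0.22, −0.17, −0.30 and −0.22 for *Acaa1b*, −0.71, −0.66, −0.80 and −0.72 for *Pdk4*, and −0.18, −0.13, −0.26 and −0.18 for *Plin2*. *Slc25a47* reversed to 0.0275, 0.0769 and 0.0274 (not with equal totals), and *Retsat* reversed to 0.0135 with TMM alone. Listed genes called lower fell from 108 to 13, 10, 17 and 12, with 65 higher in each. The rescaling itself removes the shift shared by the list; any other cause was not tested.

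With each mouse left out, the log2 fold change ranged from −0.791 to −0.493 for *Acaa1b* and from −0.608 to −0.477 for *Ehhadh*. It ranged from −1.75 to −0.888 for *Pdk4* and from −0.792 to −0.526 for *Plin2*. For *Retsat* it ranged from −0.624 to −0.385, and for *Slc25a47* from −0.539 to −0.381. The adjusted p of *Retsat* and *Slc25a47* rose above 0.05 in some of these fits. The 6 genes had 1 to 4 called lower, and the listed genes 67 to 130, the fewest without TBG-*Zrsr1* mouse 2 in both. With an adjusted p under 0.05 alone, 6 of the 6 genes and 192 listed genes were called lower, and 65 were called higher. Every gene of the selected list thus passed, so nothing is read from that count. With a fold change above 2, 1 of the 6 genes and 19 listed genes were called lower, and 15 were called higher.

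The adjustment covered 257 selected genes and not all genes counted. Depth is unknown, and at *Pdk4* counting error is 11.0% for a count equal to the mean of the TBG-*Zrsr1* mice.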

Other observations

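A few other genes related to nuclear receptors and acyl-CoA metabolism were in the table. They were chosen after their values were seen and are given as values. *Rxrg*, which encodes a form of RXR, the partner of PPAR alpha on DNA, was counted 50, 49 and 46 times in TBG-Vec mice and 19, 23 and 30 times in TBG-*Zrsr1* mice (log2 fold change −1.01, standard error 0.19). The groups did not overlap, at low counts in both. *Nr0b2*, which encodes the receptor SHP that represses bile acid synthesis, was counted 313, 362 and 289 times in TBG-Vec mice and 155, 182 and 227 times in TBG-*Zrsr1* mice (log2 fold change −0.77, standard error 0.18). *Acot11*, a thioesterase gene outside the cluster of *Acot2*, *Acot3* and *Acot4*, was counted 110, 127 and 87 times in TBG-Vec mice and 65, 63 and 79 times in TBG-*Zrsr1* mice (log2 fold change −0.65, standard error 0.18). The lowest TBG-*Zrsr1* mouse was mouse 1 for *Rxrg* and *Nr0b2* and mouse 2 for *Acot11*. Under the scalings over the listed genes these genes were still lower in TBG-*Zrsr1* mice, by least with TMM (−0.49 for *Rxrg*, −0.24 for *Nr0b2* and −0.13 for *Acot11*).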
